A study of Mus musculus with 11 samples.

Results

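A set of 10 genes that serve antigen presentation by the class I molecules of the major histocompatibility complex (MHC) was read out in BV2 cells, an immortalized microglial line of the mouse, by RNA sequencing. The genes were taken by symbol from the 36529 genes listed in every count file. They comprise 5 heavy chains (H2-K1, H2-D1, H2-T23, H2-Q4 and H2-Q6), 4 genes of peptide loading (Tap1, Tap2, Tapbp and Tapbpl) and the transcriptional regulator Nlrc5. The light chain gene B2m is listed at 0 counts in all 11 samples, was left out of the set, and is described with the overlapping genes.

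MHC class I molecules show peptides from proteins made inside a cell to cytotoxic T cells. Peptides cut by the proteasome are pumped into the endoplasmic reticulum by the TAP transporter, fitted onto the heavy chain with the help of tapasin, and carried to the surface with beta-2-microglobulin. Microglia, the resident macrophages of the brain, hold these genes at a low level at rest and raise them in response to interferon and other inflammatory signals.

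In the first experiment, 3 samples were exposed for 5 h to 25 µg/ml of nApoE4, the amino-terminal fragment of apolipoprotein E4 with residues 1 to 151 (group ApoE4), and 3 control samples belonged to it (ControlA). In the second, 2 samples were exposed in the same way to nApoE3, the matching fragment of apolipoprotein E3 (group ApoE3), and 3 other controls belonged to it (ControlB). The fragments differ by a single amino acid, a cysteine in nApoE3 and an arginine in nApoE4, and both were made with a histidine tag. All cells carry the label C57BL/6 and no genetic change. The controls are labelled untreated, a treatment protocol names phosphate-buffered saline, and the methods name conditioned medium, so what the controls received is not settled. Each fragment was used in 1 experiment, so fragment and experiment cannot be told apart.

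The samples held 39732710 to 44162511 counts on genes in the first experiment and 55809688 to 69768666 in the second, so that 3 counts, taken as the floor, correspond to 0.0430 to 0.0755 CPM (counts scaled to library size). Floors cover counting error only. Of 14 microglia and macrophage markers, 13 had counts, and their summed level was 3818 to 3956 CPM in ControlA, 3782 to 3842 in ApoE4, 2716 to 2824 in ControlB and 3011 to 3020 in ApoE3. P2ry12, a marker of resting microglia, was at 0 in every sample, and Cx3cr1 had 3 to 43 counts. The 6 dendritic cell markers summed to 64.9 to 85.8 CPM, most of it counts on Itgax. The 5 oligodendrocyte markers summed to 9.16 to 15.3 CPM in the first experiment and 20.5 to 25.0 in the second. The 6 lymphocyte markers summed to at most 0.604 CPM in any sample, with Ms4a1 at 0 in all, and the 6 fibroblast and endothelial markers to at most 1.99. The 5 astrocyte markers moved with treatment, from 1.22 to 1.49 CPM in ControlA to 5.91 to 7.06 in ApoE4 and from 1.08 to 1.31 in ControlB to 3.996 to 4.18 in ApoE3, most of it counts on the glutamate transporter gene Slc1a2. The 5 neuron markers went from 2.11 to 2.69 CPM in ControlA to 5.27 to 6.27 in ApoE4, and from 1.16 to 1.54 in ControlB to 1.37 to 1.39 in ApoE3. Most of the neuron sum in the first experiment was counts on Tubb3, at a mean of 2.21 CPM in ControlA and 5.57 in ApoE4. The part of other cells in the results was not tested, and in bulk RNA a change in the number of cells of a type and a change in RNA per cell cannot be told apart.

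Most of these genes lie in the MHC on chromosome 17, where counts were low for nearly every gene. By the RefSeq positions on GRCm38.p6, the 1.51 Mb from Tapbp to the end of H2-Q6 (chr17:33919478-35430055) hold 7 of the 10 genes among 93 protein-coding genes. The median level of these 93, over the 11 samples, was 0.0611 CPM, against 0.574 CPM for the 913 protein-coding genes of the rest of chromosome 17 and 1.40 CPM for 19437 on other chromosomes. Only 1 of the 93 (1.08%), H2-Q4 at 12.2 CPM, reached 10 CPM, against 37.2% of the rest of the chromosome and 41.4% elsewhere. Genes used by all cells were low there too. Rps18, a ribosomal protein gene, had 47 to 97 counts per sample, the second lowest level among 72 Rps and Rpl genes whose median was 694 CPM. Low counts ran past both ends of the interval, with the ribosomal protein gene Rps28 at 0.722 CPM before Tapbp and H2-Q7 at 0.819 CPM after H2-Q6. Farther along the chromosome, the tubulin gene Tubb5 had 5783 to 9951 counts. Low counts of the members inside this interval therefore stood beside low counts of their neighbours. Why the interval was low was not tested.

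**Figure D1:**
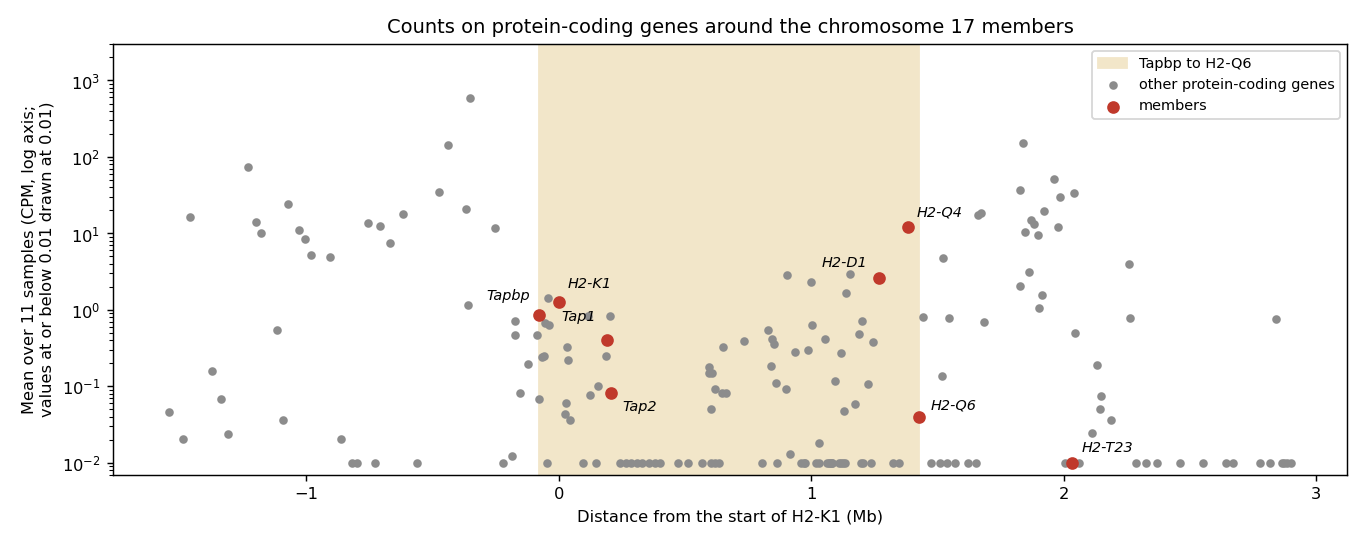
Mean level over 11 samples in CPM, on a log axis, of each protein-coding gene by its distance in Mb from the start of H2-K1. Red points are members, grey points other genes, and the shaded interval runs from Tapbp to H2-Q6. Inside it H2-Q4 alone lies above 10 CPM, while genes on either side reach over 100 CPM.

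Single libraries also stood apart in this interval. Among genes with at least 50 counts in some sample, 13 of 22 in the interval (59.1%) had a library with more than 5 times the CPM of the next in its group, against 6 of 458 (1.31%) on the rest of chromosome 17 and 43 of 10453 (0.411%) elsewhere. Of the members, Tap1 was such a gene, with 125 counts in ControlB replicate 2. Psmb8 and Psmb9, subunits of the immunoproteasome that lie beside Tap1 and Tap2, had 282 and 85 counts in ControlA replicate 1 and at most 22 and 6 in any other sample.

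The heavy chains are given first. H2-Q4, a nonclassical heavy chain of the Q region (chr17:35379617-35384674), had 187, 219 and 183 counts in ControlA and 1307, 1115 and 1162 in ApoE4. It had 213, 159 and 169 counts in ControlB and 841 and 754 in ApoE3. Every treated sample stood above every control of its experiment, and the groups did not overlap. The level rose from 4.62 ± 0.384 CPM (SD, n = 3) to 28.6 ± 1.52 (n = 3) with nApoE4, a log2 fold change of 2.72 (SE 0.097, adjusted p = 1.51e-08), and from 2.89 ± 0.254 (n = 3) to 12.8 ± 0.643 (n = 2) with nApoE3, a log2 fold change of 2.27 (SE 0.086, adjusted p = 2.01e-10). Adjusted p-values here and below are from edgeR's quasi-likelihood test with Benjamini-Hochberg adjustment over all genes tested. The study speaks of 3 independent measurements or trials, but neither it nor the labels say that the replicates were separate cultures. The p-values therefore measure the spread between these samples, which may be technical.

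H2-K1, one of the classical heavy chains that present peptides to CD8 T cells, had 24, 24 and 17 counts in ControlA and 62, 80 and 82 in ApoE4. In the second experiment it had 65, 49 and 56 counts in ControlB and 115 and 142 in ApoE3. Treated samples were above the controls in both experiments, at counts far below those of H2-Q4. H2-K1 rose by 1.90 on the log2 scale with nApoE4 (SE 0.24, adjusted p = 1.05e-04) and by 1.31 with nApoE3 (SE 0.18, adjusted p = 3.73e-05).

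H2-D1, the other classical heavy chain in the set, had 73, 108 and 33 counts in ControlA and 98, 60 and 90 in ApoE4. These groups overlapped, and the log2 fold change of 0.32 did not pass the test (SE 0.37, 95% interval -0.41 to 1.05, adjusted p = 0.488). Without ControlA replicate 3, the lowest control, the value was -0.046. With nApoE3, H2-D1 went from 115, 114 and 100 counts to 595 and 203. Both treated samples were above all controls but differed from each other 2.82-fold in CPM. The log2 fold change of 1.98 (SE 0.32, adjusted p = 1.31e-04) became 1.04 without ApoE3 replicate 1 and 2.54 without ApoE3 replicate 2, and the call held in both.

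H2-Q6 was counted in 1 group alone, with 5, 2 and 11 counts in ApoE4 and 0 in the other 8 samples. Its 18 counts against none in ControlA give a level at least 6.11-fold higher, computed against a floor of 3 counts over the group. Of the 18, 11 came from ApoE4 replicate 3, so this bound rests mostly on 1 library. Over its transcript, 82.1% of 75-base stretches, the length of a read, matched no other gene, so some of its reads could also match H2-Q7. H2-T23, the heavy chain that engages the CD94/NKG2 receptors of natural killer cells, was at 0 in all 11 samples. It lies whole within the long noncoding gene A930015D03Rik.

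Promoters were compared because H2-K1, H2-D1, H2-Q4 and H2-Q6 share upstream sequence. RefSeq promoter sequence on GRCm38.p6 was found for 7 of the 10 genes, and not for Tap2, Tapbpl and Nlrc5. The 190 bases before the start of H2-D1, H2-Q4 and H2-Q6 are shown 5′ to 3′ on the gene's strand, since these 3 genes moved in different ways. H2-K1 is not shown, because the bases before the start used for it lie within its own RefSeq span. Capitals mark matches, on either strand, to the NF-kB consensus (the run of 11 capitals), to CCAAT (or ATTGG) and to TGACG.

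H2-D1, chr17:35262904-35263093 (+ strand): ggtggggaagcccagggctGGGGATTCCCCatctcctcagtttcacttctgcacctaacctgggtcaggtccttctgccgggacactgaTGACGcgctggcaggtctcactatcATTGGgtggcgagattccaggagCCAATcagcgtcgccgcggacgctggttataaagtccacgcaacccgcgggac

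H2-Q4, chr17:35379427-35379616 (+ strand): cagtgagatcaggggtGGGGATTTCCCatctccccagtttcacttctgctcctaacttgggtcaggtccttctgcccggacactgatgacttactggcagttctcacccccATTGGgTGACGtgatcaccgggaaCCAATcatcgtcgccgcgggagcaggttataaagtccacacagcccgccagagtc

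H2-Q6, chr17:35424660-35424849 (+ strand): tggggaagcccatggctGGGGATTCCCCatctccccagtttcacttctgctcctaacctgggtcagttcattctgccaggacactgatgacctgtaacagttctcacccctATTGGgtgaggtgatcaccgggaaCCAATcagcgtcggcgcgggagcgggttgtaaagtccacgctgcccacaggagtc

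In pairs, 83.9% of the aligned bases were identical between H2-D1 and H2-Q4, 84.9% between H2-D1 and H2-Q6, and 88.6% between H2-Q4 and H2-Q6. For H2-K1, over shorter alignments, it was 90.8% with H2-D1, 87.4% with H2-Q4 and 88% with H2-Q6. The NF-kB consensus began 171 bases before the start of H2-D1, 174 before that of H2-Q4 and 173 before that of H2-Q6. For H2-K1 it began 111 bases before the start used, a distance not comparable with the others. It was in 4 of the 7 promoters found and in 5.14% of the promoters of 27025 genes, over 300 bases each. CCAAT was in all 7, against 41.1% of genes, and TGACG in 4, namely H2-K1, H2-D1, H2-Q4 and Tap1, against 23% of genes. As an exact match, the interferon-stimulated element core GAAANNGAAA, at 3.99% of genes, was in the promoter of H2-T23 alone. The STAT element TTCNNNGAA, at 9.55%, was in none. Variants of these letters were not searched for, so the other promoters are not shown to lack such elements. All 3 marked motifs were in both H2-D1 and H2-Q4, but TGACG not at the same place. It began 101 bases before the start of H2-D1 and 73 before that of H2-Q4. With nApoE4 H2-Q4 passed the test while H2-D1 did not, and with nApoE3 both passed. Whether the motifs bear on this was not tested. A match describes letters in this window and is no evidence of a factor there.

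The peptide loading genes come next. Tapbpl, on chromosome 6 (chr6:125223927-125231860), encodes TAPBPR, a relative of tapasin that edits the peptides bound by class I molecules. It had 542, 624 and 670 counts in ControlA and 1645, 1500 and 1375 in ApoE4. In the second experiment it had 743, 557 and 577 counts in ControlB and 1680 and 1576 in ApoE3. No control came near a treated sample in either experiment. The log2 fold change was 1.42 with nApoE4 (SE 0.072, adjusted p = 1.59e-07) and 1.51 with nApoE3 (SE 0.058, adjusted p = 2.45e-10). Tapbpl overlaps the noncoding gene E130112N10Rik, whose counts did not move the same way, with log2 fold changes of -0.40 (adjusted p = 0.197) and -1.08 (adjusted p = 3.01e-04).

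Tapbp, which encodes tapasin, the bridge between TAP and the heavy chain, had 13, 18 and 13 counts in ControlA and 79, 78 and 66 in ApoE4. With nApoE3 it went from 16, 25 and 34 counts to 71 and 45. The groups did not overlap in CPM, but ApoE3 replicate 2, at 0.735 CPM, was close to ControlB replicate 3, at 0.609 CPM. Tapbp rose by 2.45 on the log2 scale with nApoE4 (SE 0.21, adjusted p = 8.03e-06) and by 1.31 with nApoE3 (SE 0.34, adjusted p = 0.00444). Without ApoE3 replicate 1 the second value was 0.97 and no longer passed (adjusted p = 0.0757).

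Tap1 and Tap2, the subunits of the peptide transporter, were counted a few times per sample. Tap1 had 6, 5 and 5 counts in ControlA, 23, 15 and 7 in ApoE4, 7, 125 and 8 in ControlB, and 26 and 23 in ApoE3. It did not pass the filter on low counts in the first experiment, where 0 control and 2 treated samples reached the level asked for. Among all genes with at least 1 count its log2 fold change with nApoE4 was 1.55 (SE 0.47). When all 11 samples were fitted together it was 1.57, and both values are given without a test. In the second experiment the filter asked for its level in 2 samples, and Tap1 reached it in 1 control and 2 treated samples. The controls alone thus did not carry Tap1 past the filter, and its value of -0.81 (SE 0.93) is given without a test. Without ControlB replicate 2, the library with 125 counts, the value was 1.82, also given without a test. Tap2 had 1 to 6 counts in each sample of the first experiment and 2 to 10 in the second, and at this depth no difference was detectable, with log2 values of 0.66 (adjusted p = 0.508) and 1.21 (adjusted p = 0.149) among genes with at least 1 count.

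Nlrc5, on chromosome 8 (chr8:94434335-94527272), encodes the class I transactivator, which acts at the promoters of heavy chain, B2m and TAP genes. It was the most deeply counted member, with 2643, 2245 and 3339 counts in ControlA, 5318, 5802 and 4934 in ApoE4, 4589, 3866 and 3615 in ControlB, and 9587 and 8808 in ApoE3. ControlA replicate 2 was the lowest control and all treated samples were above all controls. The level rose from 64.7 ± 13.0 CPM (SD, n = 3) to 128 ± 10.3 (n = 3) with nApoE4, a log2 fold change of 1.08 (SE 0.12, adjusted p = 3.62e-05). With nApoE3 it rose from 64.6 ± 1.27 (n = 3) to 147 ± 4.87 (n = 2), a log2 fold change of 1.32 (SE 0.031, adjusted p = 2.12e-12).

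**Figure D2:**
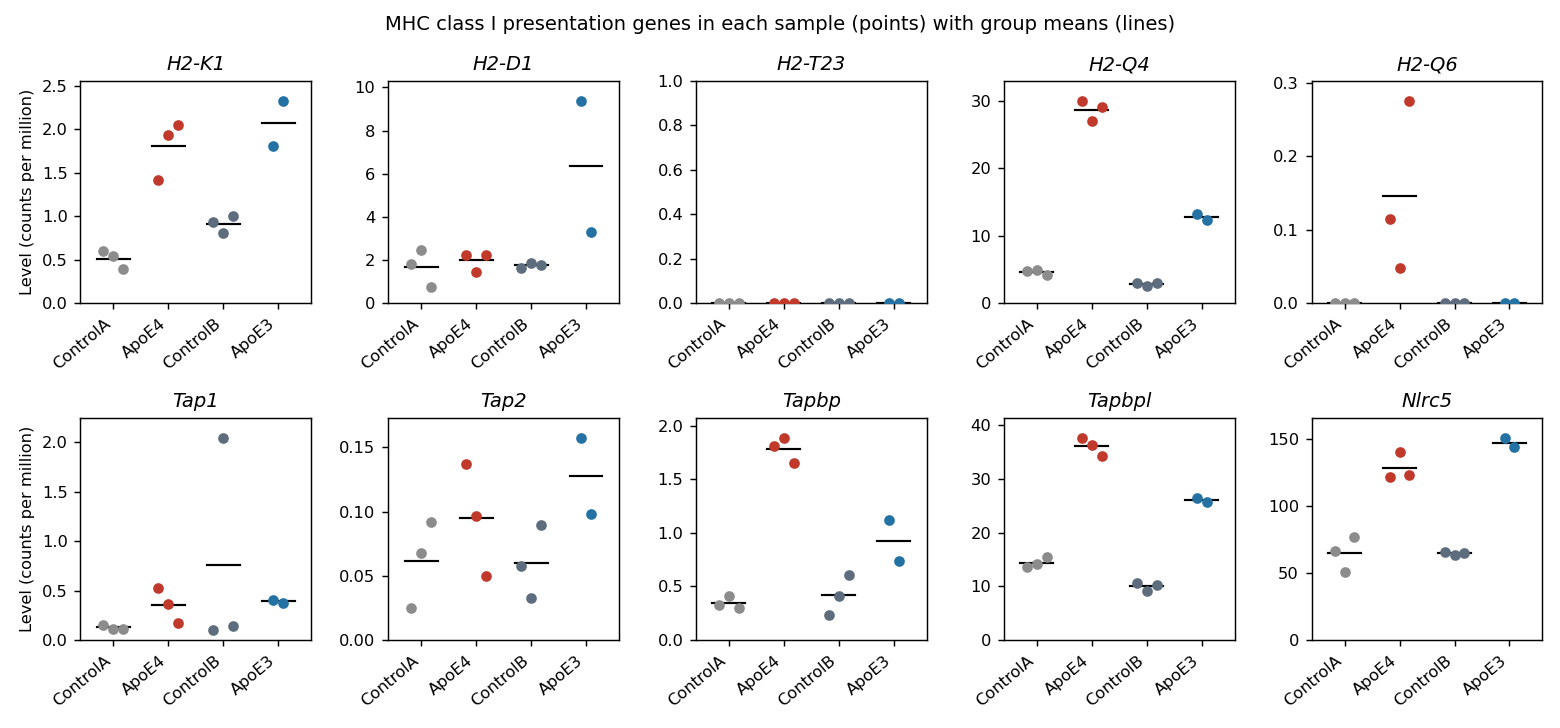
Level in CPM of each of the 10 genes in each sample (points) with the group mean (line), in the order ControlA, ApoE4, ControlB and ApoE3, on a linear axis from 0 for each gene. The treated points of H2-K1, H2-Q4, Tapbp, Tapbpl and Nlrc5 lie above their controls in both experiments, and the single high point of Tap1 is ControlB replicate 2.

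Counts were also scaled per kilobase of annotated exons. This is an order of counts per kb. Since counts in the interval were low also for Rps18, members inside it cannot be ranked by transcript level against Tapbpl and Nlrc5. In ControlA, the order was Nlrc5 at 7.62 CPM per kb, Tapbpl at 6.12, H2-Q4 at 1.78, H2-D1 at 0.652, H2-K1 at 0.175, Tapbp at 0.0950, Tap1 at 0.0231 and Tap2 at 0.0163. The ranges of the ControlA samples overlapped between Nlrc5 (5.99 to 9.03) and Tapbpl (5.80 to 6.54), and between Tap1 and Tap2. Those of H2-Q4 (1.62 to 1.91), H2-D1 (0.294 to 0.948), H2-K1 (0.133 to 0.206) and Tapbp (0.0823 to 0.112) did not overlap with a neighbour in the order. In ApoE4, H2-Q4 reached 11.03 CPM per kb against 15.1 for Nlrc5 and 15.3 for Tapbpl. In ApoE3 it reached 4.92, against 17.4 for Nlrc5 and 11.1 for Tapbpl. Both genes outside chromosome 17 thus had more counts per kb than every member in the MHC, in all 4 groups.

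For nApoE4 against ControlA, 6 of the 10 genes passed the filter on low counts, all of them with enough counts in the controls alone, and 5 of these were higher and 0 lower, each by more than 2-fold. Of the 14240 genes tested, 57.2% passed the test, 28.6% were higher and 28.6% lower, and 10.2% were higher and 7.46% lower by more than 2-fold. For nApoE3 against ControlB, 7 of the 10 passed the filter, all but Tap1 with enough counts in the controls alone. Of these 7, 6 were higher and 0 lower, again each by more than 2-fold. Here 67.7% of 14817 genes passed, 33.1% were higher and 34.6% lower, and 9.60% were higher and 6.57% lower by more than 2-fold. The median log2 fold change was 1.66 over the 6 and 1.32 over the 7, against 0.001 and -0.003 over all genes tested. Among other genes of the interval from Tapbp to H2-Q6, 3 of 16 tested were higher and 1 lower with nApoE4, with a median of 0.22, and 4 of 25 were higher and 1 lower with nApoE3, with a median of 0.079. Some of these calls hold a single high library. Wdr46, higher with nApoE4, had 177 counts in ApoE4 replicate 2 against 16 in the next. Stk19, lower with nApoE3, had 227 in ControlB replicate 1 against 10 in the next. The largest values of these neighbours were those of Tnf, at 5.09 and 6.38.

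To set the fragments against each other, the nApoE4 effect was tested minus the nApoE3 effect over all 11 samples. Of 15287 genes, 28.3% passed this test, 14.4% with a higher and 13.9% with a lower nApoE4 effect, and 2.58% and 3.35% by more than 2-fold. Among the 7 members past the filter, H2-Q4 alone passed the test, with a difference of 0.44 on the log2 scale (SE 0.14, 95% interval 0.17 to 0.70, adjusted p = 0.0291). H2-Q4 was past the threshold under 9 of 17 alternatives, with differences from 0.36 to 0.52 and adjusted p from 0.00554 to 0.146, and leaving out 1 of 7 libraries (ControlA replicates 1 and 3, ApoE4 replicates 1 and 3, ControlB replicates 1 and 3, or ApoE3 replicate 2) ended the call. For H2-D1 the difference was -1.67 (95% interval -2.83 to -0.50, adjusted p = 0.0525). That value passed without ControlA replicate 3, at -2.03 (adjusted p = 0.00829), and without ApoE3 replicate 2, at -2.23 (adjusted p = 0.00828), while without ApoE3 replicate 1 it was -0.72 (adjusted p = 0.403). For Tapbp it was 1.13 (95% interval 0.23 to 2.03, adjusted p = 0.0870), and without ControlB replicate 1 it passed at 1.44 (adjusted p = 0.0187), while without ControlB replicate 3 it was 0.75 (adjusted p = 0.232) and with the replicate block 0.77 (adjusted p = 0.345). For H2-K1 it was 0.58 (95% interval -0.027 to 1.18, adjusted p = 0.191). For Tap1 the difference was 2.38 (95% interval -0.50 to 5.27), given without a test as for nApoE3 above, and it turned to -0.25 without ControlB replicate 2. The difference was -0.11 for Tapbpl (95% interval -0.30 to 0.094, adjusted p = 0.490) and -0.25 for Nlrc5 (95% interval -0.53 to 0.033, adjusted p = 0.227), although Nlrc5 passed at -0.38 without ControlA replicate 2 (adjusted p = 0.00325). The intervals do not show that the fragments act alike on these genes.

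**Figure D3:**
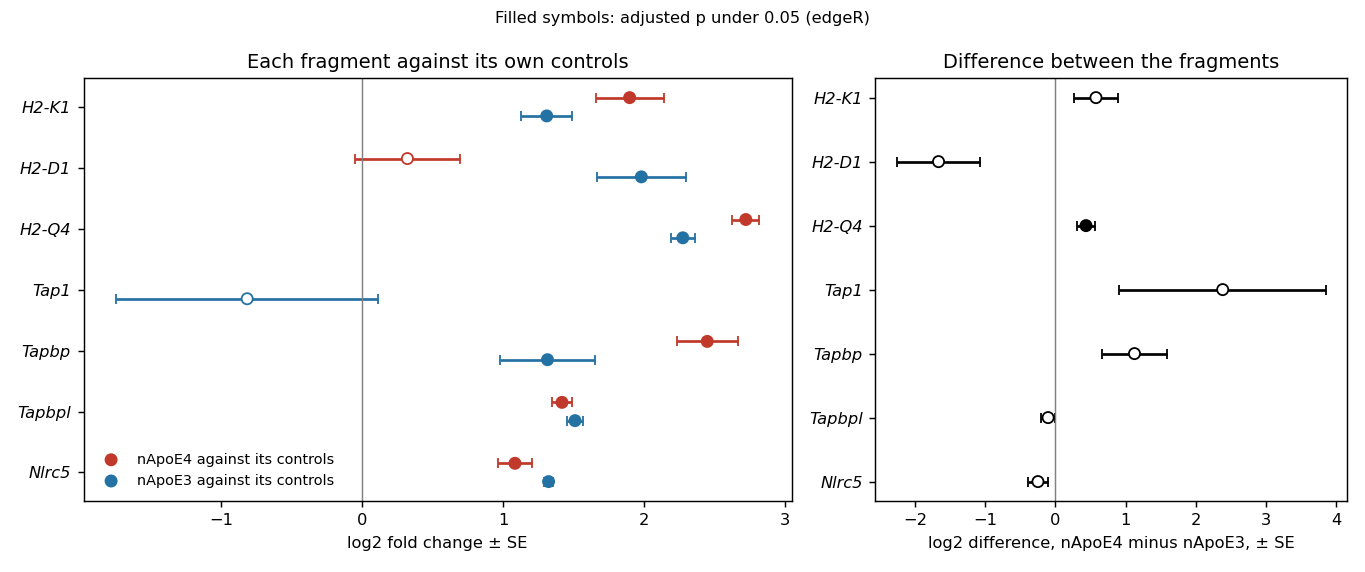
Left, log2 fold change with its SE of each member tested, for nApoE4 against ControlA (red) and nApoE3 against ControlB (blue). Right, the difference between them with its SE, where H2-Q4 at 0.44 is the filled symbol and the widest bar is that of Tap1. Filled symbols have an adjusted p under 0.05.

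The controls of the experiments also differed from each other. Between ControlB and ControlA, 69.3% of 14249 genes passed the test, 34.4% higher and 34.9% lower in ControlB, with 5.40% and 12.5% past 2-fold, and so did 3 of the 6 members tested. H2-K1 was higher in ControlB by 0.87 (adjusted p = 0.00773), H2-Q4 was lower by a log2 value of -0.64 (adjusted p = 0.00187) and Tapbpl lower by a value of -0.48 (adjusted p = 8.49e-04). H2-D1 at 0.11, Tapbp at 0.28 and Nlrc5 at 0.044 did not pass. H2-K1 was at 1.80 CPM in ApoE4 and 2.06 in ApoE3, and H2-Q4 at 28.6 CPM in ApoE4 and 12.8 in ApoE3.

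Other genes of the pathway were read from lists. Of 19 further heavy chain genes listed, 6 were at 0 in all samples (H2-M1, H2-M5, H2-M9, H2-M10.1, H2-M11 and H2-Q10) and 2 passed the filter. H2-Q7, a Qa-2 heavy chain next to H2-Q6, had 7, 8 and 6 counts in ControlA, 93, 94 and 97 in ApoE4, 8, 11 and 7 in ControlB, and 40 and 39 in ApoE3. In the first experiment no ControlA sample reached the 0.236 CPM that the filter asks for, so H2-Q7 passed it there only through the samples where it was high, and in the second 1 of 3 controls reached the level needed. Its log2 fold changes of 3.85 and 2.30 are therefore given without a test. H2-T22, a nonclassical heavy chain recognized by some gamma delta T cells, rose from 30.3 ± 1.85 CPM (SD, n = 3) to 38.5 ± 1.02 (n = 3) with nApoE4 and from 23.1 ± 1.37 (n = 3) to 47.4 ± 0.562 (n = 2) with nApoE3. Its log2 fold changes were 0.44 (adjusted p = 6.15e-04) and 1.17 (adjusted p = 2.70e-10), with a difference of -0.74 (adjusted p = 8.97e-05).

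Peptide supply was read from proteasome genes. Of 9 proteasome subunits and activators, 4 of 7 tested were higher with nApoE4 and 7 of 8 with nApoE3, and none was lower, with medians of 0.19 and 0.55, where 28.6% and 33.1% of all genes tested were higher. Psmb10, an immunoproteasome subunit encoded outside the MHC, rose by 0.86 with nApoE4 (adjusted p = 2.63e-05) and 0.89 with nApoE3 (adjusted p = 8.52e-10). Psme2, a subunit of the PA28 activator, rose by 0.86 (adjusted p = 8.16e-05) and 1.07 (adjusted p = 6.11e-12), and its partner Psme1 by 0.49 (adjusted p = 6.62e-04) and 0.73 (adjusted p = 9.45e-10). Psmb8 and Psmb9, the other immunoproteasome subunits, lie in the interval with low counts and carry the single high ControlA library given above, and Psmb8 was tested with nApoE3 only, at 0.53 (adjusted p = 0.170).

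Of 15 genes of folding and trimming in the endoplasmic reticulum and cytosol, all of them tested, 4 were higher and 1 lower with nApoE4, and 7 higher and 4 lower with nApoE3, that is 5 and 11 of 15 in either direction, where 57.2% and 67.7% of all genes tested passed. The counts of lower genes moved to 6 and 8 when library size alone was used and to 5 and 0 with all 11 samples in one fit. Without ControlA replicate 3 the first was 4, and without ApoE3 replicate 1 the second was 1. Erap1, the aminopeptidase that trims class I peptides, rose by 0.69 (adjusted p = 5.21e-06) and 0.67 (adjusted p = 1.12e-10), and the chaperone gene Hspa5 by 0.78 (adjusted p = 6.58e-06) and 0.41 (adjusted p = 1.59e-08). Tpp2, a cytosolic peptidase, rose by 0.35 (adjusted p = 4.76e-04) and 0.34 (adjusted p = 2.09e-08). Npepps, a cytosolic aminopeptidase, fell by 0.65 with nApoE4 (adjusted p = 1.07e-05) and rose by 0.22 with nApoE3 (adjusted p = 2.42e-05), a difference of -0.88 (adjusted p = 1.35e-06).

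Of 18 transcription factors known to act at class I genes, Nfyb was at 0 in all samples and 17 were tested. With nApoE4, 10 were higher and 2 lower, and with nApoE3, 11 were higher and 5 lower, against 28.6% higher and 28.6% lower, and 33.1% higher and 34.6% lower, among all genes tested. Irf7, an interferon regulatory factor, rose by 3.89 (adjusted p = 1.15e-09) and 5.33 (adjusted p = 2.03e-13). Irf1, an activator of class I and TAP genes, rose by 3.71 (adjusted p = 4.08e-10), from 26.8 to 330 CPM, and by 2.44 (adjusted p = 6.28e-13), from 31.7 to 157 CPM. Irf9, a partner of the STAT proteins, rose by 2.42 (adjusted p = 1.71e-09) and 2.35 (adjusted p = 1.43e-09), and Stat2 by 2.27 (adjusted p = 1.15e-08) and 2.61 (adjusted p = 6.02e-14). Irf8 went the other way, with log2 fold changes of -1.44 with nApoE4 (adjusted p = 2.46e-08) and -0.94 with nApoE3 (adjusted p = 2.74e-10). The difference was 1.26 for Irf1 (adjusted p = 6.52e-07), -1.44 for Irf7 (adjusted p = 1.33e-04) and -0.51 for Irf8 (adjusted p = 1.24e-04). Irf1 and Irf7 thus differed between the fragments in opposite directions. Of the 17, 2 had a higher and 6 a lower effect with nApoE4, with 3 lower under the replicate block. Among all genes tested for the difference, 14.4% were higher and 13.9% lower.

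Among 11 class I-like molecules listed, H60b and H60c were at 0 in all samples, and of 7 tested, 3 were higher and 4 lower with nApoE4, and 1 higher and 3 lower with nApoE3, where 28.6% and 33.1% of all genes tested were higher and 28.6% and 34.6% lower. Procr, the endothelial protein C receptor, rose by 2.72 (adjusted p = 3.81e-09) and 4.03 (adjusted p = 1.12e-13). Mr1, which presents vitamin metabolites to MAIT cells, fell by 1.26 (adjusted p = 5.87e-05) and by 1.49 (adjusted p = 5.45e-07). Raet1e, a ligand of NKG2D, rose by 0.88 with nApoE4 (adjusted p = 6.70e-05) and gave 0.16 with nApoE3 (adjusted p = 0.227). Hfe, an iron regulator, fell by 0.69 (adjusted p = 1.66e-05) and by 0.90 (adjusted p = 9.55e-10), and the difference of 0.20 did not pass the test (adjusted p = 0.0996).

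Of 12 genes of the class II pathway, H2-Ab1, H2-Eb1, H2-Eb2 and H2-Oa were at 0 in all samples. Cd74, the invariant chain of class II molecules, rose by 1.98 (adjusted p = 7.09e-08) and 1.66 (adjusted p = 6.64e-13). Ciita, the class II transactivator and a relative of Nlrc5, had 5, 2 and 3 counts in ControlA and 25, 27 and 28 in ApoE4, and 1 count in all of ControlB and 7 and 8 in ApoE3. Ctss, a lysosomal protease, gave 0.10 with nApoE3 (adjusted p = 7.79e-04) and -0.027 with nApoE4 (adjusted p = 0.831). Its mean was 572 CPM in ControlB and 560 in ApoE3, so the sign of the first value depends on the normalization. By library size alone, the class II genes higher with nApoE3 went from 2 to 1.

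**Figure D4:**
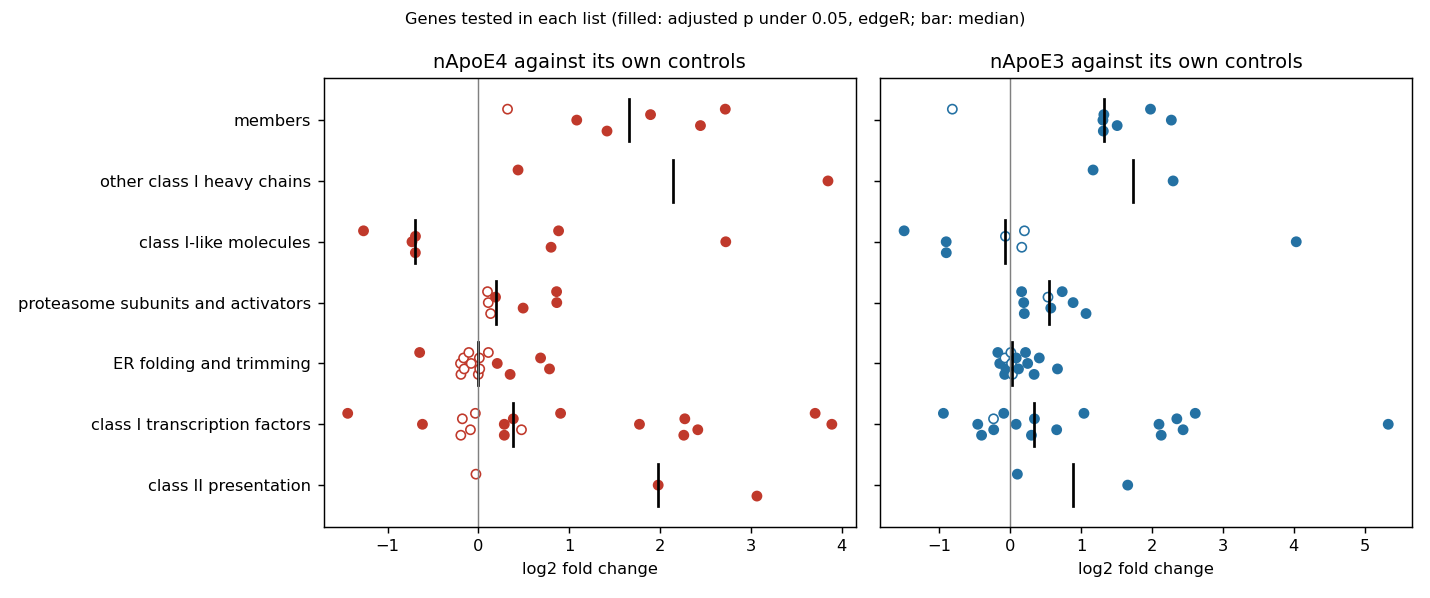
Log2 fold change of each gene tested, by list, for nApoE4 (left) and nApoE3 (right) against their own controls. Filled points have an adjusted p under 0.05, and black bars are medians, at 1.66 and 1.32 for the members and 0.19 and 0.55 for the proteasome genes. The filled points of H2-Q7 on both sides and of Ciita with nApoE4 are not read as tests. The controls alone did not carry these genes past the filter on low counts.

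Some members share their position with another gene, where the counting could assign reads to neither. B2m lies whole within the span of Patl2, and its 0 counts stood beside 589, 686 and 622 counts on Patl2 in ControlA, 1203, 1016 and 1050 in ApoE4, 509, 480 and 431 in ControlB, and 1600 and 1352 in ApoE3. Patl2 thus rose in both experiments, by 0.90 (adjusted p = 8.58e-06) and 1.77 (adjusted p = 1.31e-10). The noncoding gene around H2-T23, A930015D03Rik, rose by 1.11 (adjusted p = 0.00493) and 0.73 (adjusted p = 2.58e-07). For Nlrc5, the overlapping noncoding gene 9330175E14Rik had 34 to 85 counts per sample and rose by 0.80 (adjusted p = 0.0128) and 1.16 (adjusted p = 2.86e-04). For Tapbp, the overlapping Gm19412 was at 0. Whether reads of B2m or H2-T23 were left out or counted on the gene around them was not tested. Of 75-base stretches of the transcripts, 100% of those of Tap1, Tap2, Nlrc5 and B2m matched no other gene. The share was 99.0% for Tapbp, 98.6% for Tapbpl and 98.4% for H2-K1. It was lower for H2-D1 at 93.1%, H2-Q4 at 92.1%, H2-T23 at 86.9% and H2-Q6 at 82.1%, so more reads of these heavy chains could match another gene.

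The genes with the pattern most like the members were found by the root mean square difference in centred log2 CPM over the 11 samples, taken from the mean profile of the 6 members tested in every comparison. The 5 nearest of 15287 genes were Snx20 (0.109), Fam20c (0.134), Dusp2 (0.138), Vasp (0.148) and Lrrc8d (0.156). Snx20, a sorting nexin, stood at 51.9 CPM in ControlA, 152 in ApoE4, 47.9 in ControlB and 138 in ApoE3. Among the 6 members themselves, Tapbpl at 0.275 and Nlrc5 at 0.322 were nearest to that mean, and H2-D1 at 0.753 and H2-Q4 at 0.657 farthest.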

How the data were processed

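RNA of 11 samples of BV2 cells was sequenced as single reads of 75 bases. Per the methods and the submitters' processing notes, the authors trimmed reads with Trim Galore 0.5.0, checked them with FastQC 0.11.8, mapped them to GRCm38.p6 with HISAT2 2.1.0 and counted them with HTSeq 0.11.0. The deposited values are raw counts per gene. The annotation, strand setting and overlap mode are not given in the sources used here. Of all tallies, 76.0 to 77.7% were counts on genes, reads with more than 1 place 11.7 to 13.2% and reads on more than 1 gene 3.24 to 3.56%, and these tallies stayed out of library sizes and tests.

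Groups were taken from the labels. The tests were run with edgeR 4.0.16 under R 4.3.3 (filterByExpr with a minimum of 10 counts, TMM factors, quasi-likelihood F test, two-sided, Benjamini-Hochberg adjustment over all genes tested, threshold 0.05), on each fragment with its own controls, on the 4 group means for the difference between fragments, and on the controls. The study used DESeq2, tried here (1.42.0) as an alternative. The SE is the size of the log2 fold change over the square root of F, the 95% intervals are 1.96 SE on each side, and the prior count behind log2 CPM is 2. The fits were tested on simulated counts. Promoter stretches were aligned with Biopython 1.88.

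Alternatives were DESeq2, its size factors in edgeR, library size alone, genes with at least 1 count or with at least 10 in every sample, a replicate block, all 11 samples in one fit, and leaving out each replicate. The text names the 10 members, up to 3 genes per list and comparison with the largest change among those past the test with a mean of at least 1 CPM in a group, list genes at 0, the 5 genes nearest in pattern, and neighbouring or overlapping genes. Rps18, Rps28, Tubb5, Tnf, Wdr46, Stk19, Psmb8, Psmb9, Ciita and the markers named were chosen after their values were seen. Members and lists were chosen with earlier results of these data known.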

Additional observations from a re-analysis of the deposited data

Results flagged for a closer look

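H2-Q4 differed between the fragments by the test of the difference itself: its nApoE4 effect was higher than its nApoE3 effect by 0.44 on the log2 scale (SE 0.14, adjusted p = 0.0291, edgeR). The call was lost under 8 of 17 alternatives, 7 that each left out 1 library and the replicate block (adjusted p = 0.146). All 3 ApoE4 samples and both ApoE3 samples were above their own controls. The difference came with a control level that was lower in ControlB, and fragment and experiment cannot be told apart.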

How the results depend on the processing

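Of 220 counts recomputed under the alternatives, 201 stayed within 1.5 times of the value reported and 19 did not. With the replicate block, the difference between fragments had 2307 genes past the test in place of 4331, and 0 members higher in place of 1, since H2-Q4 gave 0.40 (adjusted p = 0.146). Same-numbered samples deviated with correlations of -0.039, -0.17 and -0.062 in the first experiment and -0.0079 and -0.013 in the second. These values give no sign of pairing by number but cannot exclude it, since the deviations of 2 ApoE3 samples mirror each other. The block moved no count of members for either fragment by over 1.5 times. With at least 1 count, 1 member was lower in the difference (H2-D1, -1.63, adjusted p = 0.00413). Leaving out 1 replicate gave 0 to 1 members higher, 0 to 1 higher by over 2-fold and 0 to 1 lower in the difference, 5 to 6 higher with nApoE4 and 5 to 7 with nApoE3, and DESeq2 and genes with at least 1 count each gave 7 with nApoE4, where H2-Q6 and Tap1 were added, of which H2-Q6 had counts in ApoE4 alone and neither reached the usual filter level in a control. The highest counts with a replicate left out also hold Tap1, which then passed the filter through treated samples alone. Between the controls, DESeq2, genes with at least 1 count and all 11 samples in one fit each gave 2 members higher and 1 by over 2-fold, in place of 1 and 0. The member added was Tap1, which had 125 counts in ControlB replicate 2 and 8 in the next of its group. That call rests on 1 library. Signs turned for H2-D1 with nApoE4 (-0.046 to 0.73, lowest without ControlA replicate 3), for Tap1 with nApoE3 (-1.37 to 1.82) and in the difference (-0.25 to 2.92), both turned without ControlB replicate 2, and between the controls for Nlrc5 (-0.0017 by library size alone, -0.080 to 0.17 with a replicate left out, lowest without ControlA replicate 2), H2-D1 (-0.26 to 0.52, lowest without ControlA replicate 3) and Tapbp (-0.083 to 0.60, lowest without ControlB replicate 3). The other causes were not tested. Low counts limit H2-Q6, Tap1 and Tap2.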
